A study of Mus musculus with 18 samples.

Results

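The 9 left ventricles of mice on the control diet fell into a set of 4 with little Pdk4 mRNA and a set of 5 with much of it, and the genes that differed between these sets are described here. Pdk4 encodes pyruvate dehydrogenase kinase 4, which phosphorylates and shuts off the pyruvate dehydrogenase complex. The hearts were chosen by their measured Pdk4 level. A heart was placed in the low set when Pdk4 was under 500 CPM (the count of a gene per 1000000 counts of its library) and in the high set when it was over 1000 CPM. All 9 control-diet hearts of the 18 in the series met one limit or the other. The low set held 1 of 4 wild-type (WT) hearts and 3 of 5 Gαq hearts.

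RNA was sequenced from frozen left ventricle of male FVB/N mice. Gαq mice carry a transgene that overexpresses Gnaq, the alpha subunit of a G protein, in the heart only, and WT mice were their littermates. From 4 weeks of age, mice were given a control diet (CD) or chow with ertugliflozin (ERTU), an inhibitor of the renal glucose transporter SGLT2, at 0.5 mg per g for 16 weeks, so that tissue was taken at 20 weeks. The hearts comprised 4 WT CD, 5 Gαq CD, 5 WT ERTU and 4 Gαq ERTU, and each is named here by its group and the number its column has in the count table. These numbers run across the series and are not the replicate numbers of the sample labels. The sources used here give neither the feeding state nor the hour at which the hearts were taken.

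The heart burns mostly fatty acids and lactate in the fasted state and takes up more glucose after a meal, when insulin is high. Fasting raises Pdk4 through fatty acids that activate the nuclear receptor PPARA, through glucocorticoids and through FoxO transcription factors, which insulin keeps out of the nucleus. The kinase then spares glucose by stopping pyruvate from entering the TCA cycle. For this reason the genes below are ordered from the control of pyruvate dehydrogenase to lipid use, the hormone-responsive genes, the clock, and glucose and sterol metabolism.

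Total counts per library ran from 15383566 to 20908363 on CD and from 16075634 to 20647195 on ERTU, and the low and high sets overlapped in depth. Gnaq, the gene of the transgene, was 47.2 to 211 CPM in the 4 WT CD hearts and 1694 to 11935 CPM in the 5 Gαq CD hearts, and each heart matched its label of genotype. Cardiac muscle was seen in the summed level of 10 cardiomyocyte markers, which was 89420 to 106645 CPM in the low set and 87639 to 115991 CPM in the high set. That sum does not show the chamber the tissue came from. In bulk tissue, fewer cells of a type and less RNA per cell cannot be told apart. The labels and the table gave no sequencing batch.

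Pdk4 (ENSMUSG00000019577, GRCm38 chromosome 6, 5483351 to 5496309, minus strand) stood at 3863 CPM in WT CD 1, 3320 CPM in WT CD 2, 167 CPM in WT CD 4 and 3625 CPM in WT CD 5. In Gαq hearts on the same diet it stood at 1806 CPM in Gαq CD 6, 161 CPM in Gαq CD 7, 273 CPM in Gαq CD 8, 107 CPM in Gαq CD 9 and 1876 CPM in Gαq CD 10. The highest heart inside the low limit was therefore Gαq CD 8 and the lowest inside the high limit was Gαq CD 6, with no heart between 273 and 1806 CPM. The fitted difference of -3.80 ± 0.29 (log2, low minus high, ± SE) is what the choice of sets gives and carries no test. In the ERTU hearts, which were not used to set the limits, Pdk4 ran from 1619 to 6351 CPM in the 5 WT and from 1260 to 2604 CPM in the 4 Gαq, and none was under 500 CPM.

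**Figure D1:**
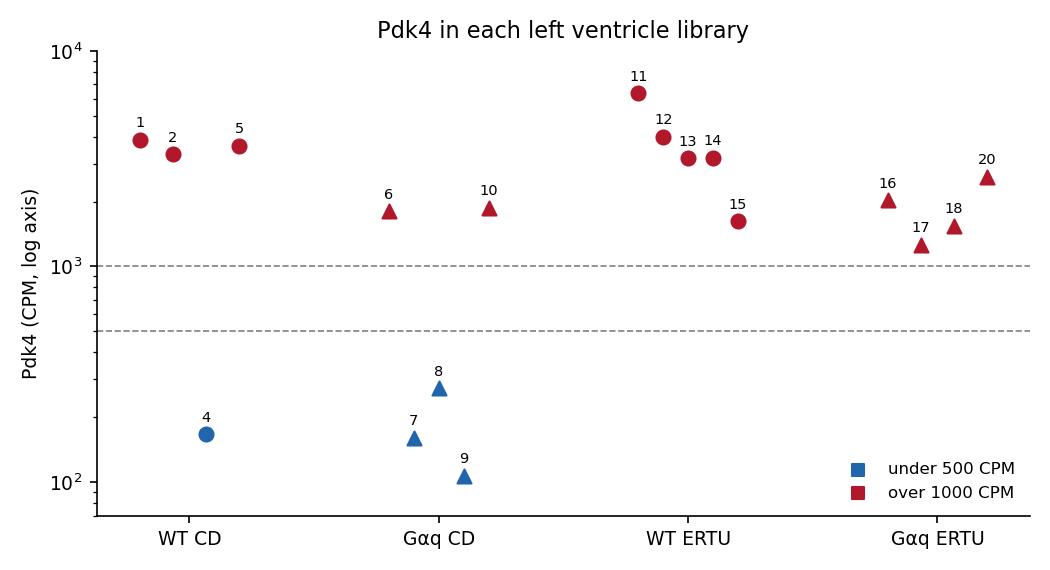
Pdk4 in CPM (log axis) in each of the 18 left ventricles, by group, with the column number of each library above its point and dashed lines at 500 and 1000 CPM. Circles are WT and triangles are Gαq. The 4 low control-diet hearts, WT CD 4 and Gαq CD 7, 8 and 9, lie at 107 to 273 CPM, and all other hearts lie at 1260 CPM or above.

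Because Pdk4 in these hearts chose the sets, and every gene was read from the same libraries, all CD values below are a description. An adjusted p under 0.05 (edgeR quasi-likelihood test with genotype as a term, Benjamini-Hochberg over all genes) serves only to sort CD genes and is printed for none of them; genes that passed it are said to have been called. Of 17145 genes fitted, 474 were called (2.76%), 328 of them lower in the low set (1.91%) and 146 higher (0.852%). With library totals as the only scaling the split was 248 lower and 183 higher. The count rested in part on WT CD 4, the sole low heart of its genotype, and was 149 without it. It was 238 without Gαq CD 7 and 210 without Gαq CD 10.

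A comparison that could be tested came from the 9 ERTU hearts. There, each gene was fitted against log2 of Pdk4 CPM with genotype as a term, which gave a slope, the log2 change of the gene per doubling of Pdk4. Of 15685 genes, 22 had an adjusted p under 0.05 (0.14%), 14 with a positive slope (0.0893%) and 8 with a negative slope (0.051%). None was called without WT ERTU 11, the heart with the most Pdk4, nor without WT ERTU 15, the WT ERTU heart with the least, although 1484 and 1145 genes had an unadjusted p under 0.05 in those fits. With all 9 hearts, 2059 genes had an unadjusted p under 0.05, 1037 of them with a positive slope. Over all 15685 genes, past a threshold or not, 8013 slopes were positive.

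Genes of the CD contrast moved the same way with Pdk4 in the ERTU hearts, with which they share no library. Of the 465 genes called on CD and fitted in ERTU, 448 (96.3%) followed Pdk4 in the same direction, against 10636 of all 15676 genes fitted in both (67.8%). Among those lower in the low set, 316 of 324 had a positive slope, with a median slope of 0.38. Among those higher, 132 of 141 had a negative slope, with a median of -0.36. An unadjusted p under 0.05 in ERTU was reached by 308 of the 465 (66.2%) and by 2057 of the 15676 (13.1%). Genes are not independent replicates, so these shares are given without a test.

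**Figure D2:**
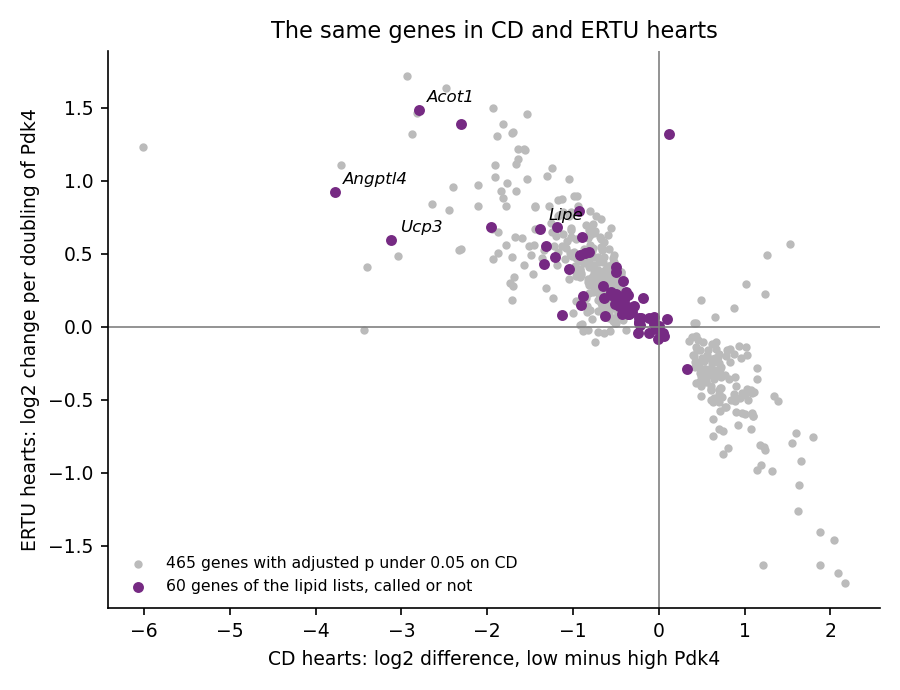
Each point is a gene, with the log2 difference between low and high Pdk4 hearts on CD on the x axis and the log2 change per doubling of Pdk4 in the ERTU hearts on the y axis. Grey points are the 465 genes called on CD and purple points the 60 genes of the 3 lipid lists fitted on both diets, of which 50 lie in the upper left, lower in the low set and with a positive slope.

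Within the machinery that Pdk4 belongs to, no other member was called. The list held 13 further genes, the kinases Pdk1, Pdk2 and Pdk3, the phosphatases that reverse them, the subunits of the complex and the pyruvate carrier. Their median log2 difference was -0.01, against 0.01 over all genes. Pdk2, another kinase of the family, differed by -0.30 ± 0.13. Its low and high sets overlapped over both genotypes, but within each genotype every low heart lay below every high heart. It was 442 CPM in WT CD 4 and 479 to 493 CPM in the high WT hearts. In Gαq it was 261 to 393 CPM in the 3 low hearts and 401 to 411 CPM in the high ones. Mpc1, a subunit of the mitochondrial pyruvate carrier, differed by 0.20 ± 0.14. None of the 13 genes had a slope past the threshold in ERTU, and 4 of 13 slopes were positive.

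Targets of PPARA, the receptor that switches on fatty acid use when lipids are plentiful, were lower in the low set. Of 34 genes of the list that passed the filter on low counts, 20 were called lower, as were 1.91% of all genes, and 0 higher. The 34 had a median difference of -0.53. The median was -0.50 within WT and -0.54 within Gαq. The count of 20 was 11 without WT CD 4. In the ERTU hearts 30 of 33 slopes were positive, against 8013 of 15685 over all genes, with a median of 0.22. Of the 33, 15 had an unadjusted p under 0.05 and 2 (Acot2 and Pnpla2) passed the adjusted threshold.

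Angptl4, a secreted inhibitor of lipoprotein lipase, had the largest fall of all genes that met the rule for naming. It was 60.6, 69.7 and 92.8 CPM in the high WT hearts and 1.93 CPM in WT CD 4. In Gαq it was 48.7 and 83.2 CPM in the high hearts and 1.81, 15.3 and 4.51 CPM in the low hearts 7, 8 and 9. The sets did not overlap, and Gαq CD 8, the low heart with the most Pdk4, also had the most Angptl4 of the low set. The log2 difference was -3.78 ± 0.53, and the ERTU slope of 0.92 ± 0.25 missed the threshold (edgeR adjusted p = 0.153).

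Ucp3, a mitochondrial carrier that rises with fatty acid supply, was 194 to 227 CPM in the high WT hearts and 23.3 CPM in WT CD 4. It was 76.8 and 108 CPM in the high Gαq hearts and 8.79 to 15.5 CPM in the low ones. Its difference of -3.12 ± 0.18 was close in the genotypes, -3.24 within WT and -3.04 within Gαq. The ERTU slope of Ucp3, 0.60 ± 0.16, missed the threshold (edgeR adjusted p = 0.162). Acot1, a cytosolic thioesterase that frees fatty acids from CoA, was 50.8 to 65.9 CPM in the high WT hearts, 6.25 CPM in WT CD 4, 14.2 and 34.9 CPM in the high Gαq hearts and 2.86 to 6.07 CPM in the low ones. It differed by -2.79 ± 0.29, and its close paralogs Acot2 (-1.96 ± 0.14) and Acot4 (-2.30 ± 0.29) were called as well, though reads of near-identical copies may be split between them. In ERTU, Acot1 was 11.9 CPM in WT ERTU 15 and 61.4 to 110 CPM in the other 4 WT hearts, with a slope of 1.48 ± 0.32 (edgeR adjusted p = 0.0926). Without WT ERTU 15 that slope was 0.88 (edgeR adjusted p = 0.560).

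Of 9 genes of ketone body metabolism, 1 was called (2.76% of all genes), and the median difference was -0.09. The genes that burn ketone bodies were not called, with differences of 0.09 for Oxct1 and 0.31 for Bdh1.

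**Figure D3:**
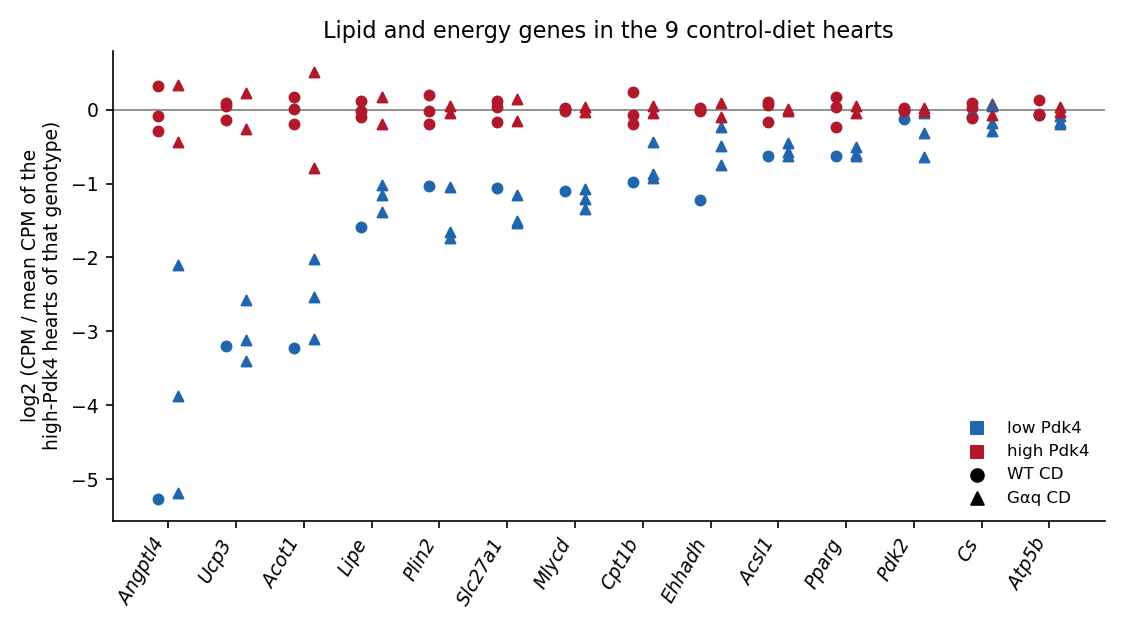
Log2 of the CPM of 14 genes in each of the 9 control-diet hearts, relative to the mean CPM of the high-Pdk4 hearts of the same genotype; circles are WT, triangles are Gαq, blue is low Pdk4 and red is high Pdk4. Blue points lie below red ones in both genotypes for the genes from Angptl4 to Pparg. They also do so for Pdk2 and Atp5b (a subunit of ATP synthase), where the fitted differences were smaller (-0.30 and -0.17). For Cs (citrate synthase) blue and red points mix.

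Genes that bring fatty acids into the cell and store or release them in lipid droplets were lower in the low set as well. Of 24 genes, 13 were called lower and 0 higher, against 1.91% and 0.852% of all genes. The median difference was -0.56 (-0.58 within WT, -0.61 within Gαq). Of the 24, 13 had every low heart below every high heart, as did 2.95% of all genes. Without WT CD 4, 9 were called. Lipe, Slc27a1 and Pnpla2 passed the adjusted threshold in ERTU, and 21 of 24 slopes were positive, with a median of 0.25.

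Lipe, the hormone-sensitive lipase, was 111 to 129 CPM in the high WT hearts, 39.4 CPM in WT CD 4, 69.8 and 89.9 CPM in the high Gαq hearts and 30.4 to 39.5 CPM in the low ones. The 4 low hearts lay at 39.5 CPM or less in both genotypes, a difference of -1.38 ± 0.12. In ERTU, Lipe rose by 0.67 ± 0.10 per doubling of Pdk4 (edgeR adjusted p = 0.0290), from 53.4 CPM in Gαq ERTU 17, the ERTU heart with the least Pdk4, to 165 CPM in WT ERTU 11, that with the most. Slc27a1, a fatty acid transport protein, was 279 to 339 CPM in the high WT hearts and 150 CPM in WT CD 4, and 230 and 281 CPM in the high Gαq hearts against 87.9 to 115 CPM in the low ones. It differed by -1.31 ± 0.13 on CD and rose by 0.55 ± 0.09 per doubling in ERTU (edgeR adjusted p = 0.0441).

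The perilipins, which coat lipid droplets, were called lower in 4 of 5 members fitted, against 1.91% of all genes. Plin2 differed by -1.34 ± 0.15, Plin5 by -1.05 ± 0.11, Plin4 by -0.92 ± 0.12 and Plin3 by -0.50 ± 0.12. Pnpla2, the lipase that starts triglyceride breakdown, differed by -1.18 ± 0.12 and had a positive ERTU slope of 0.69 that passed the threshold. G0s2, the inhibitor of that lipase, was not called and differed by 0.33. Of the proteins that bring lipid to the cell, Gpihbp1 (which anchors lipoprotein lipase to capillary endothelium) differed by -0.90 ± 0.13 and Cd36 (a fatty acid receptor) by -0.65 ± 0.11, whereas Lpl itself differed by -0.23 and was not called. Fabp4, a fatty acid binding protein of capillary endothelium, differed by -0.86 ± 0.13. It was the sole called gene of 8 endothelial markers, whose median difference was 0.10 with 3 of them negative. Their summed level was 1945 to 2172 CPM in the low set and 1941 to 3355 CPM in the high set. That sum includes Fabp4 itself, at 548 to 718 CPM in the low set and 863 to 1531 CPM in the high set. The part of endothelial content in the result was not tested.

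Genes of fatty acid oxidation proper differed by smaller amounts. All 26 had a negative difference, against 8339 of 17145 over all genes. The median was -0.37 (-0.25 within WT, -0.43 within Gαq). Of the 26, 7 were called, all lower, against 1.91% of all genes. The called genes included Mlycd (-1.21 ± 0.10), which removes the malonyl-CoA that blocks carnitine palmitoyltransferase, Cpt1b (-0.88 ± 0.16) and Cpt2 (-0.49 ± 0.10), which carry acyl groups into mitochondria, the carrier Slc25a20 (-0.56 ± 0.11), Acsl1 (-0.63 ± 0.12), which activates fatty acids, and the peroxisomal enzyme Ehhadh (-0.81 ± 0.17). The dehydrogenases and hydratases of the mitochondrial spiral were not called, with differences of -0.43 for Hadha, -0.39 for Acadl and -0.11 for Acadm. Without WT CD 4, 1 gene was called, and without WT CD 5, 12. No gene of the list passed the adjusted threshold in ERTU, where 23 of 26 slopes were positive and 7 had an unadjusted p under 0.05.

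Mlycd was 201 to 207 CPM in the high WT hearts, 95.4 CPM in WT CD 4, 165 and 174 CPM in the high Gαq hearts and 66.8 to 80.8 CPM in the low ones. Its high hearts were narrowly spread within each genotype and lay above every low heart. Acsl1 was 1334 to 1606 CPM in the high WT hearts, 968 CPM in WT CD 4, 1072 and 1093 CPM in the high Gαq hearts and 703 to 793 CPM in the low ones.

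Of the 18 genes for the receptors and coactivators themselves, 1 was called (2.76% of all genes). Pparg was 19.7 to 25.9 CPM in the high WT hearts, 15 CPM in WT CD 4, 20.7 and 22.1 CPM in the high Gαq hearts and 13.8 to 15 CPM in the low ones, a difference of -0.65 ± 0.11. Its call was lost without WT CD 4. Ppara differed by 0.35 and Ppargc1a, the coactivator PGC-1α, by -0.16, and neither was called.

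The mitochondrial lists were near the median of all genes. Of 76 genes of oxidative phosphorylation, 0 were called by edgeR and the median difference was -0.02, made of 0.18 within WT and -0.14 within Gαq. In ERTU, 67 of the 76 slopes were positive, with a median of 0.09, and 0 had an unadjusted p under 0.05. Of 19 TCA cycle genes, 0 were called and 15 had a negative difference, with a median of -0.10. Citrate synthase, Cs, was 1442 to 1660 CPM in the high WT hearts and 1458 CPM in WT CD 4. Branched-chain amino acid catabolism also had 0 of 18 called and a median of -0.10. Of these 18 genes, 17 had a negative difference, against 8339 of 17145 over all genes.

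**Figure D4:**
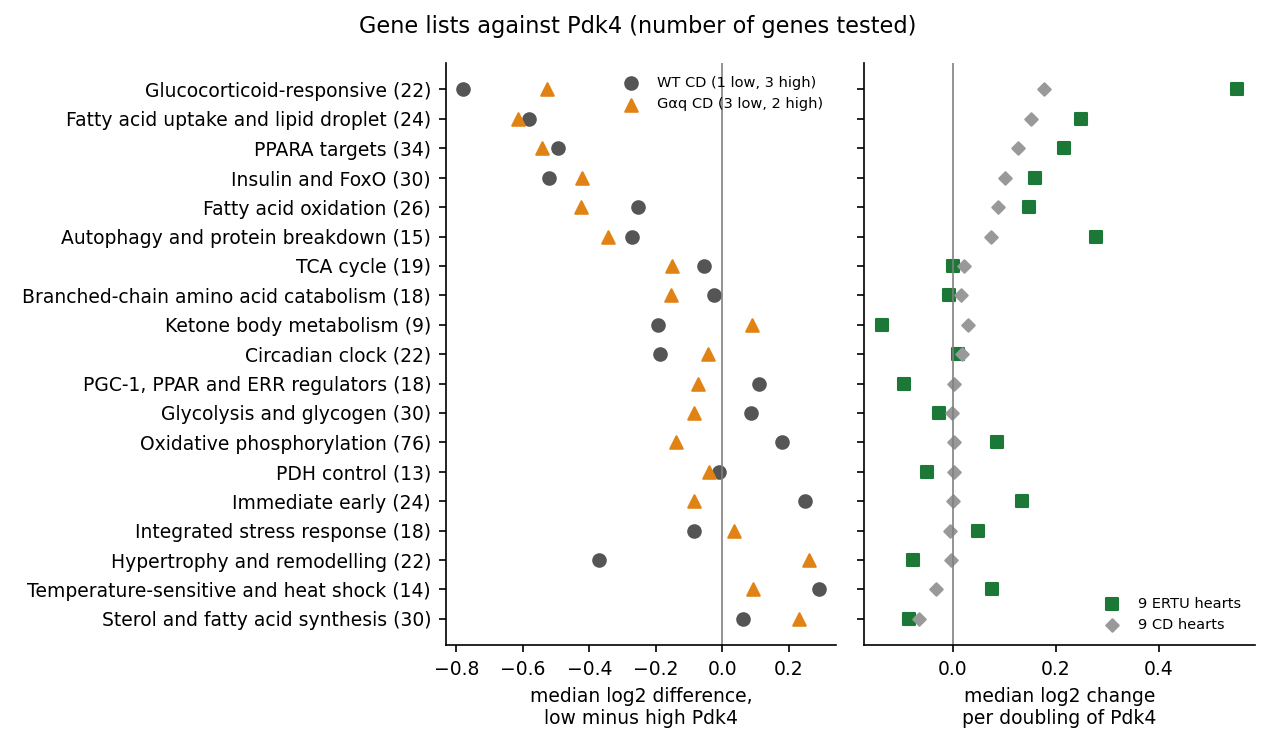
Medians of 19 gene lists, ordered by the difference over all 9 control-diet hearts, with the number of genes fitted in brackets. The left panel gives the log2 difference between low and high Pdk4 hearts within WT (circles) and within Gαq (triangles), and the right panel the log2 change per doubling of Pdk4 in the 9 ERTU hearts (squares) and the 9 CD hearts (diamonds). The upper 6 lists lie left of 0 in both genotypes and right of 0 on both diets, with medians of -0.62 to -0.30 over the 9 CD hearts; the TCA cycle and circadian clock lists share these signs at -0.10 and -0.06.

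The list of insulin action and FoxO genes had calls in both directions, most of them lower. Of its 30 genes fitted, 11 were called lower and 2 higher, against 1.91% and 0.852% of all genes. The median was -0.39, and 6 were called without WT CD 4. Of the 30, 13 had every low heart below every high heart, against 2.95% of all genes. Every low heart lay above every high heart in 2 of the 30, against 4.22% of all genes. Txnip, an inhibitor of glucose uptake, was 1360 to 1532 CPM in the high WT hearts and 423 CPM in WT CD 4. It was 1539 and 1863 CPM in the high Gαq hearts and 312, 912 and 500 CPM in the low hearts 7, 8 and 9, a difference of -1.70 ± 0.25. Pik3ip1, which restrains PI3 kinase, differed by -0.84 ± 0.12, and Cited2, a transcriptional coregulator, by -0.96 ± 0.10.

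Foxo6 and Hk2 were the members called higher. The call of Hk2 was lost when any of 7 of the 9 CD hearts was left out. Pfkfb2, an enzyme that sets fructose 2,6-bisphosphate, was not called (0.58 ± 0.20) but was, with Foxo6, the other member with every low heart above every high heart. Foxo6 was 0.975 to 2.47 CPM in the high WT hearts, 5.90 CPM in WT CD 4, 0.593 and 1.11 CPM in the high Gαq hearts and 2.82 to 3.88 CPM in the low ones, a difference of 1.80 ± 0.29. Foxo3, another member of that family, was called lower, by -0.62 ± 0.12. Hk2, the hexokinase that insulin induces in muscle, was 251 to 291 CPM in the high WT hearts and 481 CPM in WT CD 4, and 156 and 257 CPM in the high Gαq hearts against 272 to 436 CPM in the low ones, a difference of 0.75 ± 0.18. In ERTU none of the 30 passed the adjusted threshold; 13 slopes were positive and 3 negative with an unadjusted p under 0.05. The list of autophagy and protein breakdown, which shares genes with this one, had a median of -0.30. Of its 15 genes, 4 were called, all lower, against 1.91% of all genes. They were Bnip3 (-0.76 ± 0.11), Gabarapl1 (-0.69 ± 0.14), Sqstm1 (-0.62 ± 0.10) and the ubiquitin ligase Fbxo32 (-0.58 ± 0.13). When each of the 9 CD hearts was left out in turn, the call of Fbxo32 was lost in 6 cases, that of Gabarapl1 in 3 and that of Sqstm1 in 1.

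Promoter windows are shown for Pdk4, the gene that defines the sets, and for Lipe and Txnip, the 2 members described above whose windows hold the FoxO element gtaaaca. They come from RefSeq (GRCm38.p6), read 5′ to 3′ on the strand of the gene, and bases annotated as exons of the gene are left out. Capitals mark the FoxO element, read on either strand.
Pdk4, chr6:5496310-5496528, minus strand: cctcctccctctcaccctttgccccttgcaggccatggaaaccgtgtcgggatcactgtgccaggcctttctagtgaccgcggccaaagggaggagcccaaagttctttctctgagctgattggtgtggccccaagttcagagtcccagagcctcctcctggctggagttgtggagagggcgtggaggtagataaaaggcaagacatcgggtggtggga
Lipe, chr7:25390113-25390351, minus strand: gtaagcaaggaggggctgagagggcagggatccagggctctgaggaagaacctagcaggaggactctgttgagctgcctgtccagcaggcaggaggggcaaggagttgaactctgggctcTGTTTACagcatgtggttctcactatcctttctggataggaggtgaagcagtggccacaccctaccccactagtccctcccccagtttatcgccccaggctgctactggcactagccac
Txnip, chr3:96557707-96557956, plus strand: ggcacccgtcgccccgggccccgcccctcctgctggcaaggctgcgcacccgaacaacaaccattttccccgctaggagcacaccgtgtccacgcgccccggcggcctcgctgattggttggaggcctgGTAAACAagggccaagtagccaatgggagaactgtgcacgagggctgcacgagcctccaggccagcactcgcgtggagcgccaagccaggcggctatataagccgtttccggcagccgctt

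The element began 121 bases before the start of Txnip and 119 bases before a start of Lipe that lies inside the gene. Over windows of 250 bases before to 50 after each start, 4.05% of 27025 genes held it. It was in 2 of the 22 genes with a window among the called genes of the lipid lists (Lipe and Pank1) and in 1 of the 9 among the FoxO genes called lower (Txnip). The E-box CACGTG was in 3 of those 22 (Lipe, Plin2 and Slc27a1), against 8.09% of all genes. That of Lipe lies in the window of another start of the gene, which is not printed. A perfect direct repeat 1, the form PPARA binds, was in 0 of the 22 and in 0.0481% of all genes. The Pdk4 window held no match to these motifs, to the palindromic glucocorticoid response element or to the D-box TTATGTAA, which says only that these letters are absent there.

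Glucocorticoid-responsive genes had the lowest median of all lists, -0.62 (-0.78 within WT, -0.53 within Gαq). Of 22 genes, 9 were called lower and 1 higher, against 1.91% and 0.852% of all genes. Without WT CD 4, 3 were called. Fkbp5, a chaperone that glucocorticoids induce strongly, was 101, 27.6 and 71.4 CPM in the high hearts WT CD 1, 2 and 5 and 15.5 CPM in WT CD 4. In Gαq it was 78.3 and 79.1 CPM in the high hearts and 20.6 to 30.5 CPM in the low ones. WT CD 2 was within the range of the low hearts, although its Pdk4 was 3320 CPM. The same heart was the lowest of the high WT hearts for Zbtb16 (73.5 CPM, others 150 and 254 CPM), Cdkn1a (19.5 CPM, others 50.1 and 60.6 CPM) and Ddit4 (62.5 CPM, others 93.1 and 167 CPM).

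The log2 differences were -1.88 ± 0.30 for Fkbp5, -1.88 ± 0.31 for Zbtb16 (a zinc finger transcription factor), -1.71 ± 0.36 for Cdkn1a (the cell cycle inhibitor p21) and -1.64 ± 0.27 for Ddit4 (an inhibitor of mTORC1). Nr3c1, the glucocorticoid receptor gene, was the member called higher, by 0.49 ± 0.11, and was 159 to 208 CPM in the low set and 113 to 139 CPM in the high set. In ERTU 20 of 22 slopes were positive, the median of 0.55 was the highest of the 19 lists, and 14 had an unadjusted p under 0.05 with a positive slope, but 0 passed the adjusted threshold of edgeR. Fkbp5 had a slope of 1.31 ± 0.42 (edgeR adjusted p = 0.209).

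The circadian clock list had 3 called genes of 22, all lower (1.91% of all genes), and a median of -0.06. Arntl, the gene of the clock activator BMAL1, was 5.32 to 5.72 CPM in the high WT hearts, 3.33 CPM in WT CD 4, 6.92 and 13.6 CPM in the high Gαq hearts and 3.51 to 5.61 CPM in the low ones, so that Gαq CD 9 reached the high WT hearts. Its difference was -1.13 ± 0.24. It was not called without WT CD 4, Gαq CD 6 or Gαq CD 7. Cry2, a repressor, differed by -0.40 ± 0.10, and its call was lost when any of 8 of the 9 CD hearts was left out and kept only without WT CD 5. Dbp, Per2 and Nr1d1, which swing widely over the day, were not called, with differences of 0.42, -0.01 and -0.41. The hour of collection was not tested, since the sources used here do not give it.

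In glucose handling, 2 of 30 genes of glycolysis and glycogen were called higher and 1 lower (0.852% and 1.91% of all genes). The median was -0.02. Ppp1r3c, a subunit that directs protein phosphatase 1 to glycogen, was 66.7 to 86.4 CPM in the high WT hearts, 185 CPM in WT CD 4, 109 and 125 CPM in the high Gαq hearts and 192 to 248 CPM in the low ones, a difference of 1.00 ± 0.13. Hk2, given above, was the other. Pfkfb1, a regulator of fructose 2,6-bisphosphate, differed by -0.96 ± 0.23. Its call, like that of Hk2, was lost when any of 7 of the 9 CD hearts was left out. The insulin-regulated transporter Slc2a4 differed by 0.20 and was not called.

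Sterol and fatty acid synthesis had 2 of 30 genes called higher and 2 lower (0.852% and 1.91% of all genes). Among the higher was the desaturase Scd2 (0.71 ± 0.16). The lower were Fdft1 (-0.67 ± 0.15), which makes squalene, and Acacb (-0.64 ± 0.13). When each of the 9 CD hearts was left out in turn, the call of Fdft1 was lost in 5 cases, that of Scd2 in 4 and that of Acacb in 3. Acacb makes the malonyl-CoA that holds back fatty acid entry into mitochondria, and Mlycd, which removes it, was lower as well. The median of 0.26 was the highest of the 19 lists. Fasn and Scd1, the enzymes of fatty acid synthesis and desaturation that insulin induces, differed by 0.77 and 1.07 and were not called.

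Stress and growth lists held few called genes. Of 24 immediate early genes, Egr3 (1.15 ± 0.26) and Nr4a1 (0.88 ± 0.20) were called higher, against 0.852% of all genes. When each of the 9 CD hearts was left out in turn, the call of Egr3 was lost in 7 cases and that of Nr4a1 in 4. Of 14 heat shock genes, the co-chaperone Dnaja1 (0.70 ± 0.17) was called higher, but not when any of 7 of the 9 CD hearts was left out. The stress response list had Ddit4, given above, as its only called gene of 18, and that call was lost without WT CD 4. In the list of hypertrophy and remodelling 0 of 22 genes were called on CD by edgeR, and its median was -0.37 within WT and 0.26 within Gαq.

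The largest rises by the rule for naming were in Mycn, Esm1, Foxo6, Tuba4a and Tfrc, and of these Foxo6 is given above. Foxo6 and Tuba4a were not called without WT CD 4, nor Esm1 without Gαq CD 6, Gαq CD 7 or Gαq CD 10. Mycn, a transcription factor of the MYC family, was 2.52 to 3.89 CPM in the high WT hearts, 12 CPM in WT CD 4, 1.66 and 2.56 CPM in the high Gαq hearts and 6.27 to 13.3 CPM in the low ones, a difference of 2.09 ± 0.26. In ERTU it was highest, at 13.4 CPM, in WT ERTU 15 and lowest, at 0.554 CPM, in WT ERTU 11, a slope of -1.68 ± 0.30 that just missed the threshold (edgeR adjusted p = 0.0566). Tfrc, the transferrin receptor, was 17.7 to 21.5 CPM in the high WT hearts, 54.2 CPM in WT CD 4, 18.9 and 32.4 CPM in the high Gαq hearts and 56.3 to 104 CPM in the low ones, a difference of 1.6 ± 0.22. Tuba4a, an alpha tubulin, was 198 to 276 CPM in the high WT hearts and 907 CPM in WT CD 4, and 113 and 300 CPM in the high Gαq hearts against 609 to 623 CPM in the low ones (1.63 ± 0.24). Esm1, an endothelial proteoglycan, differed by 2.04 ± 0.42, by 0.98 within WT and 2.77 within Gαq.

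Besides Angptl4, Ucp3 and Acot1, the largest falls by the same rule were in Chrna2 and Scd4. Chrna2, a nicotinic acetylcholine receptor subunit, was 10.03 to 18.1 CPM in the high WT hearts, 1.23 CPM in WT CD 4, 7.47 and 8.80 CPM in the high Gαq hearts and 1.03 to 1.46 CPM in the low ones (-3.03 ± 0.23). Scd4, a stearoyl-CoA desaturase, was 9.53 to 31.3 CPM in the high WT hearts, 3.33 CPM in WT CD 4, 4.92 and 5.27 CPM in the high Gαq hearts and 0.670 to 1.05 CPM in the low ones (-2.64 ± 0.32). The slopes of 0.49 ± 0.25 for Chrna2 and 0.84 ± 0.42 for Scd4 in ERTU missed the threshold (edgeR adjusted p = 0.430 and 0.427). Without WT ERTU 15 they were -0.15 and -0.11, so the sign turned for both.

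**Figure D5:**
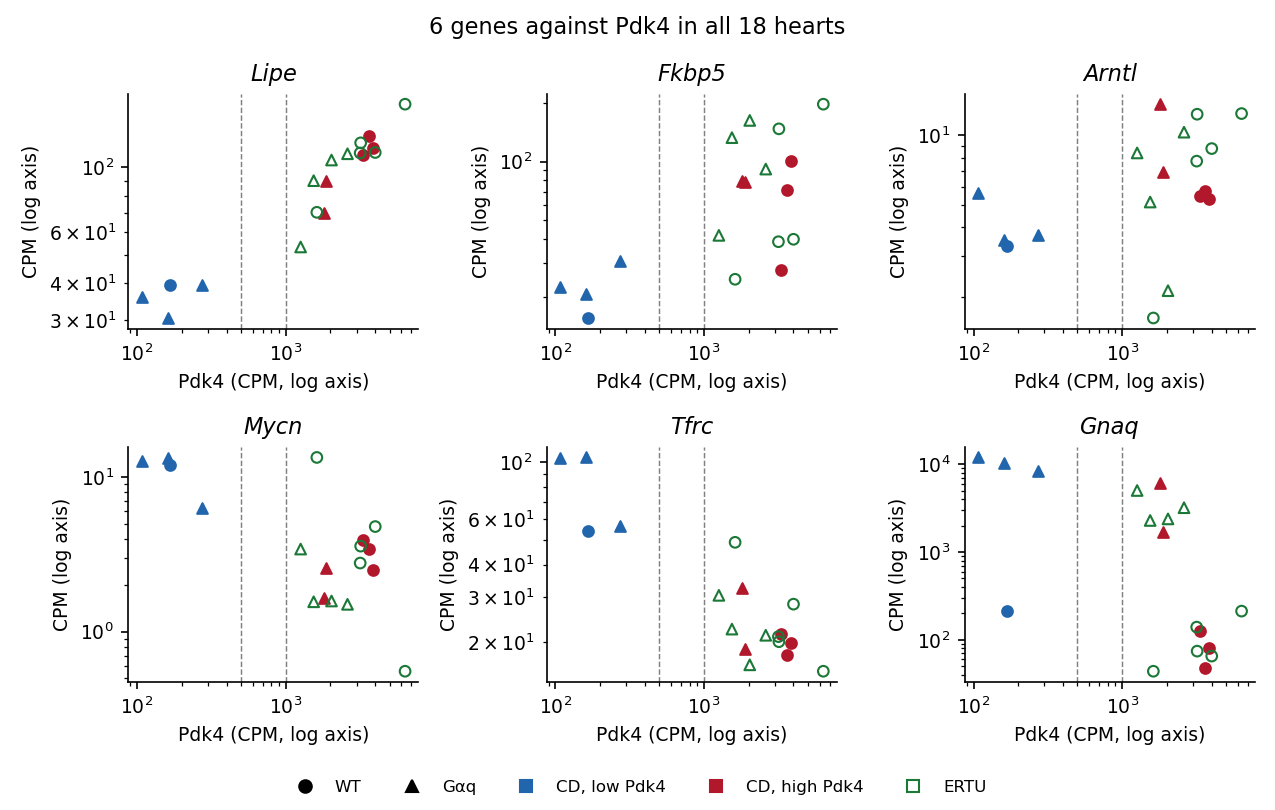
CPM of 6 genes against CPM of Pdk4 in all 18 hearts, both on log axes, with dashed lines at 500 and 1000 CPM of Pdk4. Circles are WT, triangles are Gαq, filled points are CD hearts (blue low, red high) and open green points are ERTU hearts. Lipe rises with Pdk4 across both diets and Mycn and Tfrc fall, Fkbp5 and Arntl scatter at high Pdk4, and Gnaq splits by genotype.

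In the ERTU hearts, the genes with the largest positive slopes past the threshold were Dusp4, Vwa3a, Abhd1, Wnt11 and Ccn2. Dusp4, a phosphatase that inactivates MAP kinases, rose by 1.21 ± 0.15 per doubling of Pdk4 (edgeR adjusted p = 0.0104), from 4.85 CPM in WT ERTU 15 to 29.9 CPM in WT ERTU 11 and from 25.6 CPM in Gαq ERTU 17 to 50.3 CPM in Gαq ERTU 20. Its level was set apart by genotype, and without the genotype term the slope turned to -0.15 (edgeR adjusted p = 0.910). On CD it was 8.39 to 13.7 CPM in the high WT hearts, 4.67 CPM in WT CD 4, 30.5 and 44.6 CPM in the high Gαq hearts and 9.15 to 14.5 CPM in the low ones (-1.56 ± 0.20). Vwa3a rose by 1.11 ± 0.16 and Abhd1 by 0.93 ± 0.14 per doubling (edgeR adjusted p = 0.0290 for each), and both were called lower in the low set on CD, by -1.91 ± 0.21 and -1.84 ± 0.15. Wnt11, a secreted signal, and Ccn2, a matrix protein, were not called on CD. When each of the 9 ERTU hearts was left out in turn, the call of Wnt11 was lost in 8 cases and kept only without WT ERTU 14, those of Vwa3a and Abhd1 were lost in 4 each, that of Ccn2 in 3 and that of Dusp4 in 2. WT ERTU 11 and WT ERTU 15 were among these for each gene. The other losses were without WT ERTU 13 or Gαq ERTU 17 for Vwa3a, Gαq ERTU 17 or Gαq ERTU 18 for Abhd1, and Gαq ERTU 18 for Ccn2.

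The largest negative slopes past the threshold were in Klhdc7a, Egln3, Stk39, Mfap3l and Alpl. Klhdc7a, a kelch domain protein, fell by 1.38 on the log2 scale per doubling (SE 0.14, edgeR adjusted p = 0.00547), from 22.1 CPM in WT ERTU 15 to 2.88 CPM in WT ERTU 11. On CD its difference of 0.53 ± 0.22 was not called. Egln3, an oxygen-sensing prolyl hydroxylase, had a slope of -0.83 ± 0.13 (edgeR adjusted p = 0.0342) and was called higher in the low set on CD, by 0.81 ± 0.16. Its slope was -0.52 without WT ERTU 15, and its ERTU call was lost without WT ERTU 11, WT ERTU 15, Gαq ERTU 16, Gαq ERTU 17 or Gαq ERTU 18. Alpl, alkaline phosphatase, had a slope of -0.75 ± 0.08 (edgeR adjusted p = 0.00547) and was called higher on CD, by 0.63 ± 0.13. The CD calls of both Egln3 and Alpl were lost without WT CD 4, Gαq CD 7 or Gαq CD 10, and the difference of Egln3 was 0.54 without WT CD 4. The ERTU calls of Klhdc7a and Alpl were lost without WT ERTU 11 or WT ERTU 15, that of Mfap3l also without Gαq ERTU 18, and that of Stk39 without the same 5 hearts as Egln3.

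The genes whose pattern was most like that of Pdk4 over the 9 CD hearts, after the mean of each genotype was subtracted, were Npc1, Rhobtb1, Adh1, Retsat, Abhd1, Timp4, Tmem140, Lipe, Tacc2 and Rgs2. Their Spearman correlations with Pdk4 ran from 0.967 to 1.00, and 1 gene, Npc1, had the same order as Pdk4 in all 9. The points fall into 2 sets by construction, so these values are a description of the ranking. Npc1, which exports cholesterol from lysosomes, was 223 to 268 CPM in the high WT hearts, 140 CPM in WT CD 4, 153 and 157 CPM in the high Gαq hearts and 81.2 to 91.8 CPM in the low ones. Timp4, an inhibitor of matrix metalloproteases, differed most among the 10, by -2.39 ± 0.26, and Tacc2 was 1262 to 1831 CPM in the high set and 388 to 454 CPM in the low set.

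Some other values moved with the sets. Gnaq was higher in low hearts within Gαq, at 8409 to 11935 CPM in the low hearts and 1694 and 6080 CPM in the high ones, and within WT, at 211 CPM in WT CD 4 and 47.2 to 127 CPM in the others. The difference of 1.29 ± 0.36 was not called. In ERTU its slope was 0.63 ± 0.34 (edgeR adjusted p = 0.454), so the sign there was the opposite of that on CD. The part of the transgene level in the CD differences within Gαq was not tested. Levels of atrial marker genes varied as well. Myl7, an atrial myosin light chain, was 0.350 CPM in WT CD 4 and 0.432 to 80.9 CPM in the high WT hearts, but 0.569 to 145 CPM in the low and 0 to 2.61 CPM in the high Gαq hearts. The difference was thus -6.57 within WT, where it rests on 1 low heart, and 5.33 within Gαq. The atrial markers summed to 491 CPM in WT CD 4 and 355 to 612 CPM in the high WT hearts, and to 11384 to 14040 CPM in the low and 14691 and 18422 CPM in the high Gαq hearts. In Gαq CD 6, with the sum of 18422 CPM, Myl7 was 0 CPM, Sln 0.119 CPM, Mybphl 0.356 CPM and Myl4 4.21 CPM. That sum came almost wholly from the rest of the list (Nppa, Bmp10 and Dkk3), so the sums do not measure atrial content. Smooth muscle and pericyte markers summed to 1081 to 1451 CPM in the low and 967 and 1020 CPM in the high Gαq hearts, and to 1313 CPM in WT CD 4 and 1058 to 1433 CPM in the high WT hearts. The part of atrial, smooth muscle or pericyte content in the CD differences was not tested. Of the 13 marker lists of cell types and tissues, 1 gene each of the endothelial and macrophage lists was called, Fabp4 and the scavenger receptor Cd163 (-1.12 ± 0.18), both lower. The call of Cd163 was lost without WT CD 4. In ERTU the 4 red blood cell markers fitted had positive slopes with an unadjusted p under 0.05, and their summed level was lowest, at 376 CPM, in WT ERTU 15. Of the 6 white fat markers fitted, 5 had positive slopes, 2 of them with an unadjusted p under 0.05, and the median slope of 1.04 was above the 0.57 of the red blood cell markers. Their summed level ran from 2.76 CPM in WT ERTU 12 to 115 CPM in Gαq ERTU 20. The part of blood or fat content in the ERTU slopes, those of the lipid genes included, was not tested.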

How the data were processed

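The deposited table holds raw counts of read pairs per Ensembl gene, which the authors made from poly(A)-selected libraries by alignment to mm10 with STAR 2.6.0c and assignment of uniquely mapping pairs to nuclear genes by featureCounts (Subread 1.6.2), per the study's methods and processing notes. A deposited table of transformed values was not used. Symbols were found for 55104 of 55450 gene IDs (99.4%). Libraries of a group are separate hearts, per the study's methods.

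Counts were fitted in R 4.3.3 with edgeR 4.0.16 (TMM, filterByExpr, quasi-likelihood tests, Benjamini-Hochberg adjustment over all genes except Pdk4, threshold 0.05). The CD fit held the Pdk4 set and genotype, and genes left out of it held 0.0658% of counts. The ERTU fit held log2 of Pdk4 CPM plus 1 and genotype. Each SE was derived as the absolute log2 difference or slope over the square root of its quasi-likelihood F statistic. Columns were tied to groups, not to single labelled samples. CPM values use library totals, and the TMM factors ran from 0.931 to 1.06. Genes in several lists are counted in each. The members and lists were chosen with earlier results of these data known. Genes were named as the 2 to 4 members of a list with the largest difference among called members (with none called, among all), the 5 largest called rises, falls and slopes of each direction with a mean log2 CPM no lower than 1 (rises and falls also without overlap between sets), and the 10 genes most like Pdk4; genes added beyond this were chosen after their values were seen. The steps were tested on simulated counts. Alternatives were RLE scaling, library totals, 2 filters, DESeq2 1.42.0, limma 3.58.1 voom, no genotype term, a slope in place of sets, each genotype alone and each library left out. Some named members are not reported here.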

Additional observations from a re-analysis of the deposited data

Results flagged for a closer look

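Samples within each group of 4 or 5 were compared by Dixon's gap, the distance of the most extreme sample to its neighbour divided by the range of the group. Of 30 groups of values tested, 6 passed the critical value, which about 5% of groups pass by chance. In all but 1 of them the sample was WT CD 4 among the WT CD hearts. It was the lowest for Pdk4 (gap 0.853), the gene that placed it in the low set, and for Ucp3 (0.836), and the highest for Mycn (0.856), Tuba4a (0.89) and Tfrc (0.897). Pdk4 chose WT CD 4 as the only low WT heart, and the other 4 genes were named for their difference between the sets, so its distance follows from that choice and is no separate evidence. The other was the total count of WT ERTU 15, the lowest of its group (0.71), at 16075634 against 18036131 to 18834963 in the other WT ERTU hearts; the same heart had the least Pdk4 of its group.

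Postn, a matrix protein of activated fibroblasts, differed in direction between the genotypes. It was 51.9 CPM in WT CD 4 and 54.6 to 175 CPM in the high WT hearts, but 155 to 242 CPM in the low and 69.2 and 96.8 CPM in the high Gαq hearts. The low minus high difference was -0.97 within WT and 1.10 within Gαq, and that of WT was lower by -2.07 on the log2 scale. The difference between the genotypes was not tested.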

How the results depend on the processing

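The CD count of 474 was 431 to 475 with other scalings or a mean CPM of at least 1, and 390 with no genotype term or with a slope on Pdk4. It was 1121 with no filter, 816 with DESeq2 and 960 with limma voom. Gαq CD alone gave 128 and WT CD alone, with its single low heart assumed to vary like the high hearts, gave 16. Leaving out each library gave 149 to 563.

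The ERTU count of 22 was 14 with library totals only, 259 with no filter, 345 with DESeq2, 53 with limma voom and 41 with no genotype term. Fits of Gαq ERTU alone and WT ERTU alone gave 0 by edgeR, with 876 and 1486 genes at an unadjusted p under 0.05. Leaving out each library gave 0 to 143, with 5 without Gαq ERTU 18, 14 without WT ERTU 13 and 36 without WT ERTU 12. The slope of Dusp4 turned to -0.149 with no genotype term. The share of called CD genes with the same direction in ERTU stayed at 90.75% to 97.88% when libraries were left out and was 78.9% with Gαq ERTU alone.

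Counted over named genes and alternatives together, leaving out a CD library lost 96 calls and gained 3, and other CD alternatives lost 96 and gained 22. In ERTU the numbers were 38 and 9, and 30 and 24. No paired analysis was possible because numbers in the table run through all groups and none recurs. A low against high comparison in ERTU was not run because no ERTU heart was under 500 CPM. The low set held 1 WT and 3 Gαq hearts, which limits what the differences within a genotype can show.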

Other observations

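Some tubulin and MCM helicase genes, families chosen after their values were seen, were called higher in the low set. Of 16 alpha and beta tubulin genes fitted, 15 had a positive difference and the median was 0.73. Of the 16, 7 were called higher, as were 0.852% of all genes, and 0 lower. Besides Tuba4a, these were Tuba8 (1.09 ± 0.16), Tuba1b (0.90 ± 0.17), Tubb4b (0.88 ± 0.14), Tubb6 (0.78 ± 0.14), Tubb2a (0.67 ± 0.16) and Tuba1a (0.67 ± 0.15). The exception in sign was Tubb1, at -0.66 and not called. In the ERTU hearts 13 of 13 tubulin slopes were negative, with a median of -0.20. Several tubulin genes are near-identical in their coding sequence and share reads with pseudogenes, so their counts are uncertain one by one.

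Of the 6 genes of the MCM helicase that opens replication origins, 2 were called higher, against 0.852% of all genes. They were Mcm5 (0.92 ± 0.21) and Mcm2 (0.89 ± 0.19), while Mcm7 differed by -0.20 and was not called. Mcm2 was on average 10.2 CPM in the low set and 5.44 CPM in the high set. In ERTU 5 of 6 slopes were negative, with a median of -0.45. No explanation was tested for either family.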
